A study of Mus musculus with 6 samples.

Results

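The nuclear genes of the mitochondrial oxidative phosphorylation system were followed across 3 mouse mammary lines. They were taken by name from the deposited expression table, as every gene whose symbol begins with Nduf, Uqcr, Cox4 to Cox8 or Atp5, or is Sdha, Sdhb, Sdhc, Sdhd, Cyc1 or Cycs. That rule found 84 of the 11417 genes in the table. Of these, 36 encode subunits of complex I, 4 of complex II, 9 of complex III, 11 of complex IV and 15 of complex V, and Cycs encodes cytochrome c. The other 8 are not subunits of a respiratory complex: Ndufaf1 to Ndufaf7 are 7 assembly factors of complex I, and Cox7a2l is a factor of respiratory supercomplexes. Ndufa4, named after complex I, was placed with complex IV, where its protein is now assigned. Of 15 listed genes of the mitochondrial genome, which include those of its ribosomal RNAs, 0 were found by name in the deposited table. Tissue-restricted subunit isoforms, such as Cox4i2, Cox6a2 and Cox7a1, are not among the 84 either.

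The lines BC44, HC11 and C57MG are established, untreated and labelled mammary epithelial, with 2 poly(A) RNA libraries each. The study concerns GRHL and PGR control of Wnt4, and the lines were profiled without any change of those factors. The medium of BC44 was RPMI (10% serum, insulin at 5 µg/ml), to which 10 ng/ml EGF was added for HC11. C57MG had DMEM instead (10% serum, insulin at 10 µg/ml). All were plated on plastic 10 cm dishes and harvested 2 days later. Every line therefore had its own medium, and a difference of line and a difference of medium cannot be told apart. Nothing in the labels says that the libraries of a line came from separate cultures, so p-values measure the spread between these samples, which may be technical.

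The unit is RPKM, a read count scaled to gene length and library size. Depth, recovered from the steps between low values, was an estimated 14050000 to 18360000 reads per library, and no member rested on fewer than an estimated 127 reads. Epithelial markers were nearly absent from C57MG: the summed level of 10 such genes was 137 and 65.5 RPKM, against 4850 to 5060 in BC44 and 2270 to 3150 in HC11, and Epcam and Cdh1 were listed at 0 in C57MG replicate 2. Most of the C57MG sum was Krt14, at 118.0 and 64.8 RPKM. Most of the BC44 sum was Krt14 (2716 and 2736 RPKM) and Krt5 (2012 and 1828). Only 7 of the 10 genes reached 1 RPKM in BC44, against 10 in HC11. The exceptions were Krt8, with 0.038 and 0.064 RPKM, and Cldn3 and Krt18, each with a value of 0. Epcam and Cldn4 were also lower in BC44 than in HC11, whereas Cdh1, Grhl2, Esrp1, Krt14 and Krt5 were higher. The summed level of 9 mesenchymal markers was 7430 to 7630 RPKM in C57MG and at most 391 in the other lines. BC44 replicate 2 and C57MG replicate 1 each held a low trace of genes that are high in another line. Vim read 49.4 RPKM in that BC44 library and 15.2 in its partner, and Krt5 read 16.0 RPKM in that C57MG library and 0.148 in its partner. The part of these differences between lines and libraries in the results below was not tested.

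Oxidative phosphorylation moves electrons from NADH and succinate to oxygen and uses the proton gradient that this builds to make ATP. Complexes I and II feed electrons to ubiquinone, complex III passes them to cytochrome c, complex IV reduces oxygen, and complex V, the ATP synthase, makes ATP. Subunits of each complex except complex II are encoded in both the nuclear and the mitochondrial genome, and mammary epithelium is known for a large rise in mitochondrial capacity at lactation.

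Members were abundant transcripts in all 3 lines. The median of their mean RPKM was 70.6, against 9.87 over all genes tested, and the levels ran from 2.93 for Ndufb2, a small accessory subunit of complex I, to 528.7 for Ndufa4. RPKM is per kilobase, but the gene lengths used by the authors are not given in the sources used here. Ranks, ratios and sums across different genes depend on those lengths, and most or least abundant below refers to RPKM alone. Ratios of the RPKM of the same gene between lines do not depend on the length used for it. Differences of log2(RPKM + 1), given below, depend on it slightly, most for low genes. All 84 passed the filter of at least 1 RPKM in at least 2 libraries, so no member was lost to it. The summed level of all members was 8998 and 8517 RPKM in BC44, 9198 and 8356 in HC11, with 7669 and 7672 in C57MG. The ratio of summed means was 0.998 for BC44 over HC11 and 1.14 for either line over C57MG. In bulk RNA, fewer cells of a type and less RNA per cell cannot be told apart.

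Most of that gap lay in complex IV. Its 11 members summed to 2894 and 2687 RPKM in BC44, 3110 and 2883 in HC11, with 1899 and 1912 in C57MG. The ratio of summed means was 1.46 for BC44 over C57MG and 1.57 for HC11 over C57MG, and both C57MG libraries lay below all 4 others. Complex III showed the same order of the C57MG libraries, at 856.8 and 860.9 RPKM against 922.4 to 1076 in the others. Complex I did not: it summed to 2189 and 2201 RPKM in C57MG, 2138 and 2010 in BC44, and 2125 and 1922 in HC11, ratios of 0.945 and 0.922 to C57MG. Complex V summed to 2225 and 2196 RPKM in C57MG, inside the range of 2180 to 2442 in the other lines. These sums weigh the most abundant genes most. Atp5g2 gave 598.3 and 575.8 RPKM of the complex V sum in C57MG, against 216.8 to 260.9 in BC44 and HC11. Ndufb9 gave 326.6 and 322.4 RPKM of the complex I sum in C57MG, against 152.1 to 195.0 in BC44 and HC11. A flat sum is therefore not a lack of difference in single genes, which are compared below. Complex II was highest in BC44, at 256.9 and 261.7 RPKM, with 240.8 and 218.1 in HC11 and 223.8 and 225.6 in C57MG.

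**Figure D1:**
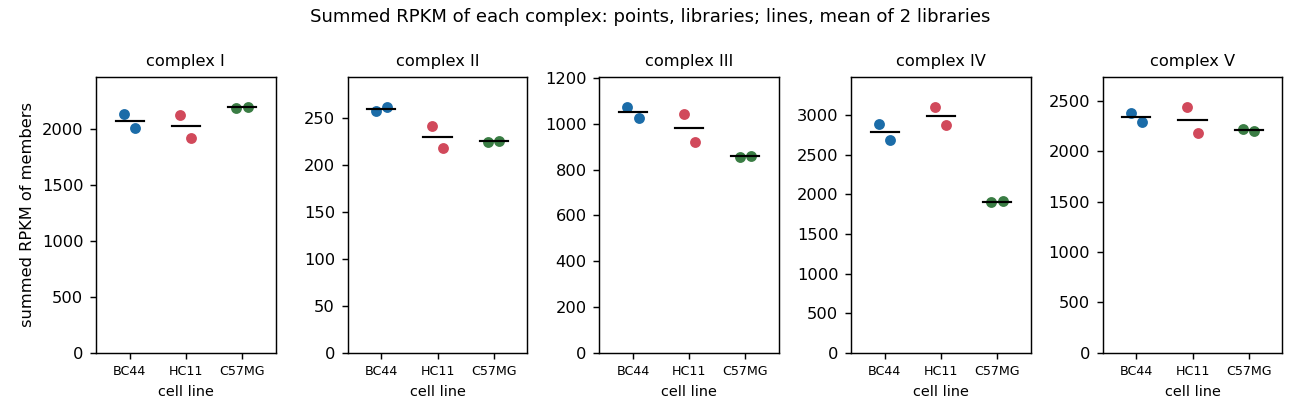
Summed RPKM of the members of each complex (y axis, from 0) in each line (x axis); points are libraries and lines are the mean of 2 libraries. Complex IV is at 1899 and 1912 RPKM in C57MG and at 2687 to 3110 in the other lines. The sums of complexes I and V differ little between lines, with Ndufb9 and Atp5g2, both highest in C57MG, among their most abundant genes.

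Single genes were compared between lines with limma on log2(RPKM + 1), fitted to all 10759 genes tested with 1 shared spread, and called at a Benjamini-Hochberg adjusted p under 0.05. Fold changes below are on that log2 scale and are given as the first line minus the second. The 3 comparisons share libraries, each line entering 2 of them, so they are not independent of each other.

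Members were called in both directions in every comparison. In BC44 against HC11, 27 members were called, 32.1% of them, against 47.7% of all genes. Of these, 15 were higher in BC44 (24.7% of all genes were) and 12 higher in HC11 (23.0%), with a median of 0.10 over the 84 and 0.02 over all genes. Under quantile normalization that split was 20 and 9. The count was 17 without BC44 replicate 1, and the 12 higher in HC11 were 7 without BC44 replicate 1 and 6 without BC44 replicate 2. In BC44 against C57MG, 56 members were called (66.7%, against 71.7% of all genes), 37 higher in BC44 (37.5% of all genes) and 19 higher in C57MG (34.1%), with medians of 0.16 over members and 0.04 over all genes. In HC11 against C57MG, 57 were called (67.9%, against 70.5%), 35 higher in HC11 (37.4% of all genes) and 22 higher in C57MG (33.2%), with medians of 0.09 and 0.03. The 22 were 14 without either C57MG library. The libraries of both lines did not overlap in 56, 73 and 72 of the 84 members in these comparisons, beside 73.0%, 87.9% and 86.2% of all genes. Leaving out BC44 replicate 2 and C57MG replicate 1 together gave 5, 24 and 29 members, beside 19.8%, 45.5% and 49.7% of all genes. All members called with the 6 libraries kept their sign there.

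Most differences were modest in size. The median absolute log2 fold change of members was 0.19 between BC44 and HC11, 0.37 between BC44 and C57MG, and 0.34 between HC11 and C57MG. All tested genes had 0.30, 0.57 and 0.53. Across the 3 lines, the highest line mean was a median of 1.43 times the lowest, from 1.05 for Ndufa6 to 2.76 for Atp5h, and 9 members reached 2-fold. C57MG stood below both other lines in 31 members and above both in 14, each with both adjusted p-values under the threshold; 28.5% and 25.9% of all genes did so. BC44 stood above both others in 9 members and below both in 4 (15.1% and 12.5% of all genes), and HC11 above both in 8 and below both in 6 (11.9% and 10.1%). Of the 8, Atp5a1, Cox4i1, Cox8a and Ndufa4 lost the call against BC44 under quantile normalization. Of the 6, Cox7a2l lost it under median-ratio scaling. There were 16 members that passed in no comparison, among them Ndufa6, Cox7a2, Cox7b, Atp5f1 and Uqcrb.

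**Figure D2:**
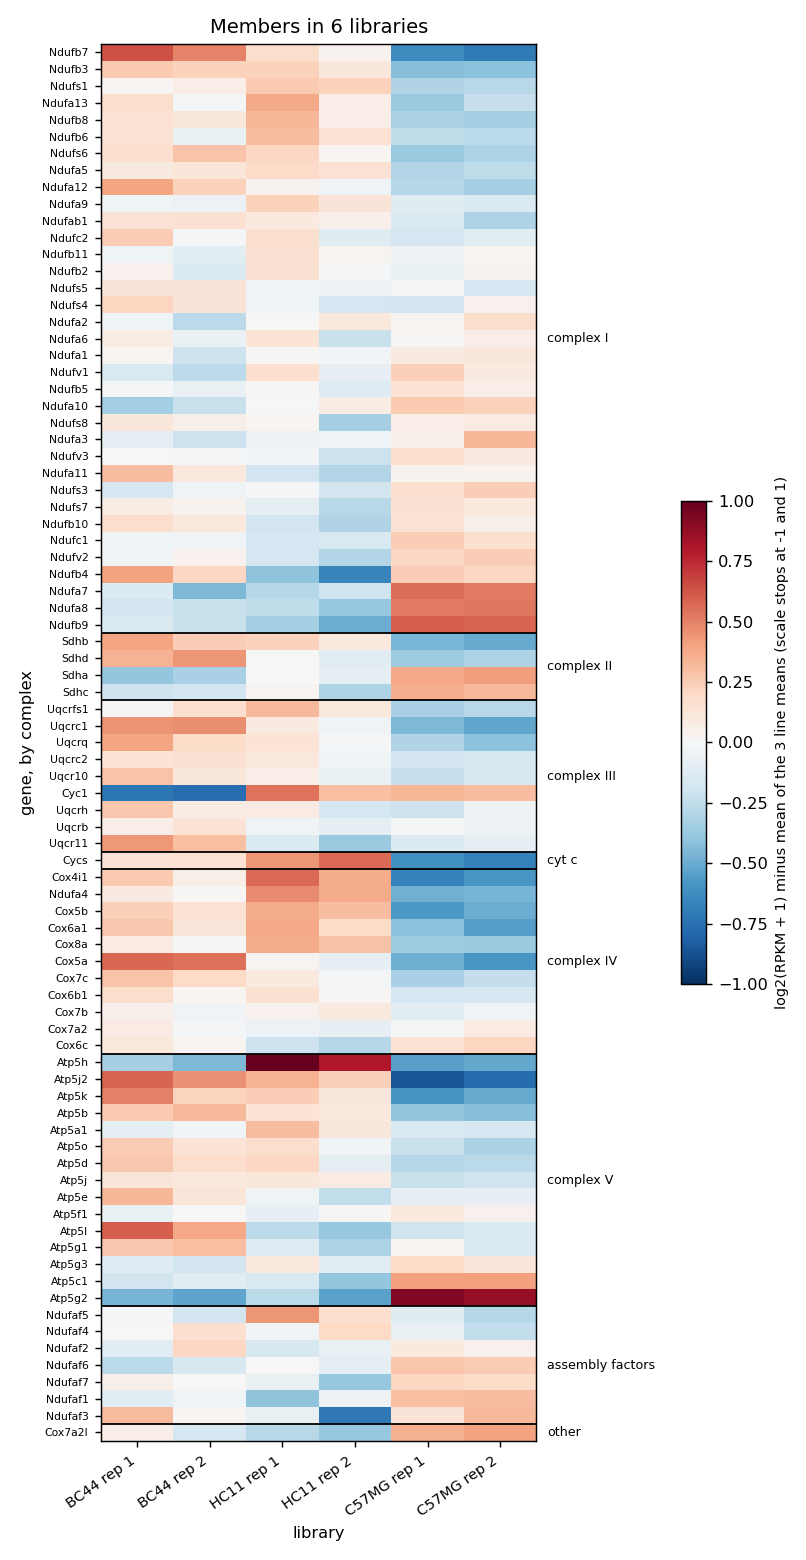
Members (rows, grouped by complex; 1 is not drawn) in each library (columns); colour is log2(RPKM + 1) minus the mean of the 3 line means, and the scale stops at -1 and 1. Most of complex IV (not Cox6c), Cycs and several genes of complex III are low in both C57MG libraries, while complex I holds genes of both signs. Atp5g2 and Atp5h stand out in C57MG and HC11.

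By complex, the direction of the calls was most uneven in complexes III and IV. Of all genes, 37.5% were higher and 34.1% lower in BC44 than in C57MG (median 0.04). In HC11 against C57MG these shares were 37.4% and 33.2% (median 0.03). In BC44 against C57MG, 8 of 11 complex IV members were higher in BC44, none higher in C57MG and 3 did not pass, with a median of 0.52. In HC11 against C57MG the same complex had 8 higher in HC11, 1 higher in C57MG and 2 not passing, with a median of 0.51. Complex III had 7 of 9 higher in BC44 than in C57MG, 1 lower and 1 not passing (median 0.39), and 4 higher in HC11 than in C57MG with 5 not passing (median 0.19). Complex V had 9 of 15 higher and 3 lower in BC44 than in C57MG (median 0.32), and 8 higher and 2 lower in HC11 (median 0.31). In complex I the calls fell to both sides, 10 higher and 10 lower in BC44 than in C57MG (median -0.01) and 11 higher and 12 lower in HC11 (median -0.09). The shares called in the 2 comparisons were 72.7% and 81.8% for complex IV and 88.9% and 44.4% for III. They were 80.0% and 66.7% for V and 55.6% and 63.9% for I, against 71.7% and 70.5% of all genes. Between BC44 and HC11 none of the 5 complexes had more than 6 members called in 1 direction, and the medians ran from -0.06 for complex IV to 0.21 for complex III. Of all genes, 24.7% were higher in BC44 and 23.0% in HC11. Counted from the median of all genes, the complex IV value between BC44 and HC11 was -0.09 and turned to 0.05 under quantile normalization. On the same footing, complex I in BC44 minus C57MG was -0.05 and turned to 0.02 without BC44 replicate 2, and complex V in HC11 minus C57MG was 0.28 and 0.15 without HC11 replicate 1.

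**Figure D3:**
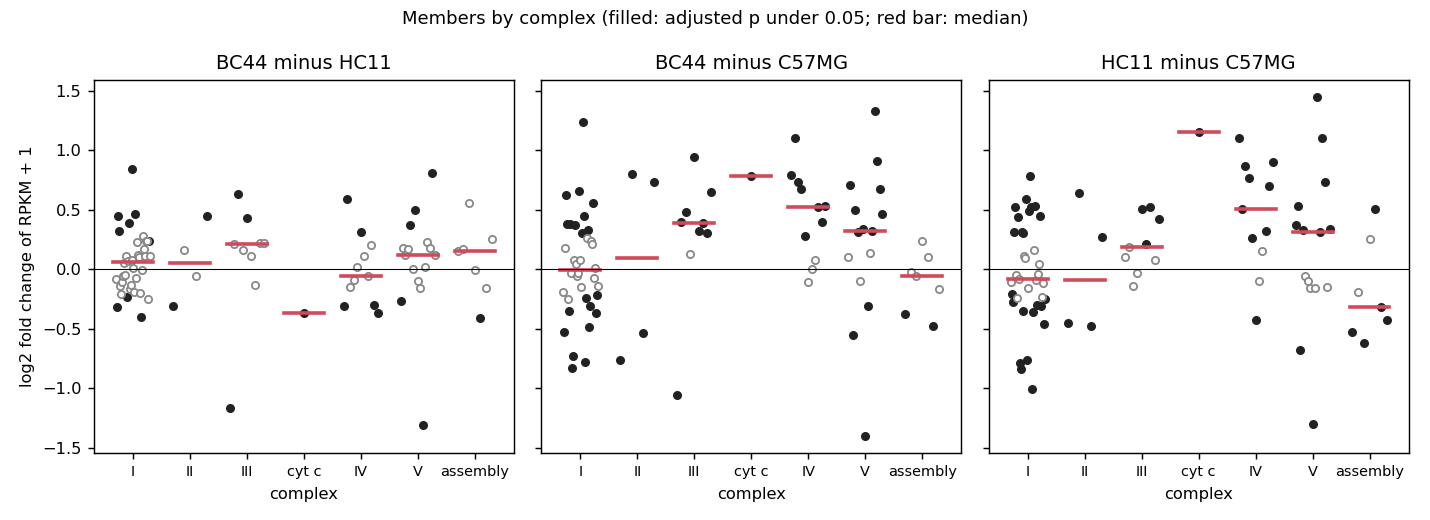
log2 fold change of each member (y axis) by complex (x axis) in the 3 comparisons; filled points have an adjusted p under 0.05 and red bars are medians. In both comparisons with C57MG the medians of complex IV are 0.52 and 0.51, while those of complex I are near 0.

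Complex I takes electrons from NADH at its peripheral arm. Ndufv1, Ndufv2 and Ndufs1 are core subunits of the NADH-oxidising end, and they did not move together. Ndufs1 read 40.0 and 41.5 RPKM in BC44, 47.6 and 46.6 in HC11, with 31.9 and 32.5 in C57MG. It was lower in C57MG than in both other lines, by 0.33 ± 0.07 (SE) from BC44 (adjusted p = 0.00424, limma) and 0.53 ± 0.07 from HC11 (adjusted p = 0.000364, limma). Ndufv2 went the other way, with 101.7 and 104.5 RPKM in C57MG, 86.3 and 90.7 in BC44, and 78.0 and 71.6 in HC11. Its difference was -0.22 ± 0.08 for BC44 minus C57MG (adjusted p = 0.034, limma) and -0.46 ± 0.08 for HC11 minus C57MG (adjusted p = 0.00113, limma). Ndufv1, which binds NADH, read 41.6 and 38.4 RPKM in BC44, 52.0 and 43.7 in HC11, with 54.7 and 49.3 in C57MG, and only BC44 and C57MG differed past the threshold (-0.37 ± 0.11, adjusted p = 0.0153, limma). That call was lost without BC44 replicate 2 or C57MG replicate 1 (adjusted p = 0.0912 and 0.103, limma), and the BC44 minus C57MG call of Ndufv2 without any 1 of the BC44 or C57MG libraries (adjusted p = 0.0578 to 0.153, limma).

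Ndufs3, Ndufs7 and Ndufs8, core subunits of the quinone-reducing part, were not higher in BC44 or HC11 than in C57MG in any call. Ndufs3 read 19.7 and 21.6 RPKM in BC44, 22.0 and 19.5 in HC11, with 24.9 and 26.6 in C57MG, and C57MG was above both others. The Ndufs3 calls were lost without either C57MG library, the one against BC44 also without BC44 replicate 1 (adjusted p = 0.0539 to 0.129, limma) and the one against HC11 also without HC11 replicate 2 (adjusted p = 0.059 to 0.141, limma). Ndufs7, an iron-sulfur subunit, passed only in HC11 minus C57MG (-0.31 ± 0.09, adjusted p = 0.0161, limma), with 29.2 and 25.6 RPKM in HC11, 34.7 and 33.5 in C57MG, and 32.8 and 32.0 in BC44. That call was lost without either C57MG library or HC11 replicate 2 (adjusted p = 0.057 to 0.0906, limma). Ndufs8, the other iron-sulfur subunit of this part, passed in no comparison, at 77.6 and 74.6 RPKM in BC44, 72.8 and 56.7 in HC11, with 75.0 and 76.0 in C57MG.

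The 29 supernumerary subunits, which surround the core without catalysing the reaction, held the widest range in complex I. Ndufb7, of the membrane arm, read 29.7 and 26.8 RPKM in BC44, 21.3 and 19.2 in HC11, with 11.7 and 11.1 in C57MG. The lines were in the same order in every library and did not overlap, with differences of 0.46 ± 0.10, 1.24 ± 0.10 and 0.78 ± 0.10 for BC44 minus HC11, BC44 minus C57MG and HC11 minus C57MG (adjusted p = 0.00597, 1.52e-05 and 0.000218, limma). Ndufb9, also of the membrane arm, was the reverse, at 326.6 and 322.4 RPKM in C57MG, 195.0 and 183.4 in BC44, and 170.6 and 152.1 in HC11. Its differences from C57MG were -0.78 ± 0.08 for BC44 and -1.01 ± 0.08 for HC11 (adjusted p = 9.01e-05 and 2.53e-05, limma). The ratio of Ndufb9 to Ndufb7 was thus 27.9 and 29.0 in C57MG and 6.56 to 8.01 in the other libraries, although both proteins belong to the same arm of the same enzyme. Ndufb9 was the most abundant member of complex I in all 6 libraries.

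Ndufa7 and Ndufa8, accessory subunits too, were also highest in C57MG. Ndufa8 read 135.1 and 135.6 RPKM there, 81.8 and 80.1 in BC44, and 78.3 and 72.1 in HC11, differences of -0.73 ± 0.07 and -0.84 ± 0.07 (adjusted p = 6.43e-05 and 3.54e-05, limma). Ndufa7 read 37.9 and 36.9 RPKM in C57MG, 23.0 and 18.3 in BC44, and 20.6 and 22.0 in HC11. BC44 and HC11 overlapped in Ndufa7 and neither gene passed between them. Ndufb4 set HC11 apart, at 27.8 and 23.1 RPKM against 49.5 and 42.9 in BC44 and 44.1 and 43.0 in C57MG. It was 0.84 ± 0.11 higher in BC44 than in HC11 (adjusted p = 0.000769, limma) and the difference of HC11 minus C57MG was -0.76 ± 0.11 (adjusted p = 0.000585, limma). Ndufb2, the least abundant member, read between 2.55 and 3.37 RPKM in the 6 libraries and passed in no comparison.

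The 7 complex I assembly factors were lower in RPKM than most subunits they help to join, at 4.98 to 27.6 RPKM in every library. In HC11 against C57MG, 4 of them were higher in C57MG (Ndufaf1, Ndufaf3, Ndufaf6 and Ndufaf7), Ndufaf5 was higher in HC11 and 2 did not pass. The called share, 71.4%, was near the 70.5% of all genes. Ndufaf5, which modifies an arginine of a core subunit, read 12.2 and 9.91 RPKM in HC11, 8.60 and 7.53 in BC44, and 7.92 and 6.96 in C57MG. It was 0.51 ± 0.13 higher in HC11 than in C57MG (adjusted p = 0.00927, limma), and BC44 minus HC11 was -0.41 ± 0.13 (adjusted p = 0.0358, limma). The first call was lost without C57MG replicate 2 or HC11 replicate 1 (adjusted p = 0.0749 and 0.0523, limma), the second without any 1 library but HC11 replicate 2 (adjusted p = 0.0609 to 0.18, limma). Ndufaf2, the most abundant of the 7, read 22.0 and 27.6 RPKM in BC44, 21.2 and 22.5 in HC11, with 25.5 and 24.6 in C57MG and passed nowhere. Replicates of Ndufaf3 were the furthest apart of any member, at 8.33 and 4.98 RPKM in HC11. Cox7a2l, which joins complexes III and IV in supercomplexes, was highest in C57MG, at 153.4 and 158.3 RPKM against 125.6 and 106.5 in BC44 and 98.3 and 91.6 in HC11. It differed by 0.28 ± 0.09, -0.43 ± 0.09 and -0.71 ± 0.09 in BC44 minus HC11, BC44 minus C57MG and HC11 minus C57MG (adjusted p = 0.042, 0.00459 and 0.000344, limma). The BC44 minus HC11 call of Cox7a2l was lost without any 1 library but BC44 replicate 2 (adjusted p = 0.0623 to 0.208, limma).

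Complex II, which oxidises succinate and is also an enzyme of the citrate cycle, has 4 subunits, and they split evenly. Sdha, the flavoprotein that oxidises succinate, read 41.99 and 43.98 RPKM in BC44, 55.2 and 51.7 in HC11, with 72.6 and 74.1 in C57MG. Its partner Sdhb, the iron-sulfur subunit, had the opposite order, at 61.5 and 55.6 RPKM in BC44, 54.8 and 49.9 in HC11, with 33.7 and 32.6 in C57MG. The ratio of Sdha to Sdhb was 0.683 and 0.791 in BC44, 1.01 and 1.04 in HC11, with 2.16 and 2.27 in C57MG, with no overlap between lines. In BC44 minus C57MG, Sdha differed by -0.76 ± 0.07 (adjusted p = 5.81e-05, limma) and Sdhb by 0.80 ± 0.09 (adjusted p = 9.74e-05, limma). In HC11 minus C57MG the values were -0.45 ± 0.07 and 0.64 ± 0.09 (adjusted p = 0.00109 and 0.000364, limma). BC44 and HC11 differed past the threshold in Sdha (-0.31 ± 0.07, adjusted p = 0.0119, limma) but not in Sdhb. Without BC44 replicate 1 that Sdha call was lost (adjusted p = 0.0621, limma).

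The membrane anchors of complex II, Sdhc and Sdhd, were split in the same manner. Sdhc read 26.6 and 26.9 RPKM in BC44, 31.4 and 24.7 in HC11, with 39.9 and 38.9 in C57MG, so that C57MG was highest and BC44 and HC11 overlapped. Sdhd read 126.8 and 135.2 RPKM in BC44, 99.3 and 91.8 in HC11, with 77.6 and 80.1 in C57MG, so that each line differed from the others. The Sdhd call of HC11 minus C57MG was lost without either C57MG library or HC11 replicate 1 (adjusted p = 0.0542 to 0.0873, limma). The difference of BC44 minus C57MG was -0.54 ± 0.11 for Sdhc (adjusted p = 0.00359, limma) and 0.73 ± 0.08 for Sdhd (adjusted p = 9.01e-05, limma). Sdhc to Sdhd ratios were 0.199 and 0.21 in BC44, 0.269 and 0.317 in HC11, with 0.485 and 0.515 in C57MG.

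Complex III carries electrons from ubiquinol to cytochrome c, through the catalytic subunits Cyc1 (cytochrome c1) and Uqcrfs1 (the Rieske iron-sulfur protein). Cyc1 was low in BC44 only, at 83.6 and 81.2 RPKM against 202.6 and 171.1 in HC11 and 174.8 and 171.7 in C57MG. BC44 minus HC11 was -1.17 ± 0.09 (adjusted p = 5.81e-05, limma) and BC44 minus C57MG -1.06 ± 0.09 (adjusted p = 2.95e-05, limma), and HC11 and C57MG did not differ past the threshold. Uqcrfs1 was low in C57MG instead, at 63.5 and 65.6 RPKM against 80.4 and 89.6 in BC44 and 100.4 and 85.8 in HC11, with BC44 and HC11 overlapping. It was 0.39 ± 0.10 higher in BC44 and 0.52 ± 0.10 higher in HC11 than in C57MG (adjusted p = 0.00853 and 0.00224, limma). The BC44 call of Uqcrfs1 was lost without BC44 replicate 2 or C57MG replicate 1 (adjusted p = 0.0619 and 0.0522, limma).

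Uqcrc1 and Uqcrc2 are the large core proteins of complex III on its matrix side. Uqcrc1 read 197.9 and 199.5 RPKM in BC44, 154.2 and 140.6 in HC11, with 105.5 and 100.4 in C57MG, and the 3 lines did not overlap. Its differences were 0.43 ± 0.08 for BC44 minus HC11, 0.94 ± 0.08 for BC44 minus C57MG and 0.51 ± 0.08 for HC11 minus C57MG (adjusted p = 0.00305, 2.08e-05 and 0.000632, limma). Uqcrc2 followed the same order over a narrower range, at 68.1 and 68.9 RPKM in BC44, 66.6 and 59.9 in HC11, with 53.9 and 55.3 in C57MG, and did not pass between BC44 and HC11. Its call in HC11 minus C57MG was lost without any 1 library but HC11 replicate 2 (adjusted p = 0.0651 to 0.179, limma), and under median-ratio scaling (adjusted p = 0.0566, limma). Cyc1 and Uqcrc1 are joined in the same complex, but the ratio of their levels was 0.423 and 0.407 in BC44, 1.31 and 1.22 in HC11, with 1.66 and 1.71 in C57MG. The 5 small subunits were all higher in BC44 than in C57MG except Uqcrb, which did not pass, and Uqcr11 alone of them passed in BC44 against HC11 (0.63 ± 0.10, adjusted p = 0.00161, limma).

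Cytochrome c, the mobile carrier between complexes III and IV and also a trigger of apoptosis once released, is encoded by Cycs. Its level was 40.2 and 40.5 RPKM in BC44, 50.05 and 54.7 in HC11, with 23.6 and 22.5 in C57MG, so that HC11 was highest and C57MG lowest in every library. The differences were -0.37 ± 0.08 for BC44 minus HC11, 0.78 ± 0.08 for BC44 minus C57MG and 1.15 ± 0.08 for HC11 minus C57MG (adjusted p = 0.00745, 6.89e-05 and 1e-05, limma).

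Complex IV, cytochrome c oxidase, passes the electrons to oxygen; its catalytic subunits are mitochondrially encoded and the members here surround them. Cox4i1, a regulatory subunit that binds ATP, read 322.0 and 279.7 RPKM in BC44, 399.5 and 348.4 in HC11, with 168.1 and 178.9 in C57MG. It was 0.79 ± 0.10 higher in BC44 and 1.10 ± 0.10 higher in HC11 than in C57MG (adjusted p = 0.000274 and 4.96e-05, limma). Ndufa4 was the most abundant of all members, at 545.8 and 516.5 RPKM in BC44, 709.2 and 664.3 in HC11, with 366.2 and 370.5 in C57MG, and the 3 lines did not overlap. HC11 minus C57MG was 0.90 ± 0.08 and BC44 minus HC11 was -0.37 ± 0.08 (adjusted p = 3.19e-05 and 0.00612, limma). The latter was lost without BC44 replicate 2 (adjusted p = 0.051, limma) and was -0.20 under quantile normalization (adjusted p = 0.0593, limma). Cox8a shared that order, with 348.2 and 326.0 RPKM in BC44, 426.1 and 404.7 in HC11, with 257.1 and 254.7 in C57MG.

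Cox5a, which sits on the matrix side of complex IV, was highest in BC44. It read 370.4 and 362.8 RPKM there, 253.2 and 234.0 in HC11, with 176.1 and 165.1 in C57MG, with differences of 0.59 ± 0.08, 1.10 ± 0.08 and 0.51 ± 0.08 for BC44 minus HC11, BC44 minus C57MG and HC11 minus C57MG (adjusted p = 0.000718, 9.44e-06 and 0.000672, limma). Cox6a1, the broadly expressed isoform of its subunit, read 326.1 and 293.2 RPKM in BC44, 351.9 and 308.6 in HC11, with 202.9 and 184.3 in C57MG, and Cox6b1 read 294.3 and 263.4, 288.6 and 262.3, and 229.7 and 229.7. In both, C57MG was below the other lines, which overlapped with each other. For Cox6b1, HC11 minus C57MG was 0.26, but 0.08 under quantile normalization (adjusted p = 0.41, limma). The Cox6b1 calls were lost without either C57MG library, against BC44 also without BC44 replicate 1 (adjusted p = 0.096 to 0.132, limma) and against HC11 also without HC11 replicate 1 (adjusted p = 0.11 to 0.118, limma). Other subunits were flatter: Cox7a2 lay between 99.8 and 111.8 RPKM and Cox7b between 100.3 and 116.1 over the 6 libraries, and neither passed anywhere. Cox6c, the least abundant member of the complex, went against the rest, at 39.4 and 37.3 RPKM in HC11, 49.2 and 46.6 in BC44, and 50.5 and 53.3 in C57MG. HC11 minus C57MG was -0.43 ± 0.08 for Cox6c (adjusted p = 0.00174, limma), and the ratio of Cox4i1 to Cox6c was 9.34 and 10.1 in HC11 against 3.33 and 3.36 in C57MG.

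Complex V makes ATP in its F1 head, of which Atp5a1 and Atp5b encode the alpha and the catalytic beta subunit. Atp5b read 438.9 and 458.6 RPKM in BC44, 401.1 and 390.6 in HC11, with 277.4 and 272.2 in C57MG. It was 0.71 ± 0.07 higher in BC44 and 0.53 ± 0.07 higher in HC11 than in C57MG (adjusted p = 6.61e-05 and 0.000369, limma). Atp5a1 did not follow it, at 244.6 and 255.7 RPKM in BC44, 322.7 and 281.9 in HC11, with 234.1 and 231.8 in C57MG. HC11 had the 2 highest values of it, and HC11 minus C57MG was 0.37 (adjusted p = 0.00577, limma), but 0.16 under quantile normalization (adjusted p = 0.103, limma). BC44 minus HC11 was -0.27 ± 0.09 (adjusted p = 0.0354, limma), a call that was lost under quantile normalization (-0.12, adjusted p = 0.22, limma) and without any 1 library but HC11 replicate 2 (adjusted p = 0.0746 to 0.156, limma). Among the other F1 members, Atp5c1, the gamma subunit of the central stalk, was highest in C57MG (193.6 and 193.6 RPKM, against 111.0 to 135.0 in the other libraries).

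The peripheral stalk holds the head still, and its member Atp5h had the widest range of all members. It read 126.1 and 115.8 RPKM in BC44, 327.0 and 278.3 in HC11, with 108.7 and 110.9 in C57MG, a gap of HC11 from all other libraries. BC44 minus HC11 was -1.31 ± 0.10 and HC11 minus C57MG 1.45 ± 0.10 (adjusted p = 3.88e-05 and 7.79e-06, limma), and BC44 and C57MG did not differ past the threshold. Of the other stalk members, Atp5o and Atp5j were higher in both BC44 and HC11 than in C57MG and Atp5f1 passed nowhere, so that subunits of 1 stalk had different orders. The small subunits Atp5j2 and Atp5k, of the membrane part, were low in C57MG. Atp5j2 read 204.5 and 186.9 RPKM in BC44, 172.9 and 160.7 in HC11, with 74.7 and 79.4 in C57MG, differences of 1.33 ± 0.08 and 1.10 ± 0.08 (adjusted p = 4.8e-06 and 1.49e-05, limma). Atp5k read 109.1 and 89.8, 91.3 and 82.9, and 50.7 and 53.8 RPKM in the same lines. Atp5l, another subunit of this kind, was highest in BC44 instead, at 340.2 and 294.1 RPKM against 187.1 and 172.1 in HC11 and 195.1 and 202.5 in C57MG.

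Some of these genes have close copies, whose reads the authors' counting could have shared. In the GRCm38 transcripts, 27 of the 84 members had another gene with at least 95% identity over at least 200 bases. Atp5h had 4 such genes, all pseudogenes, Atp5l had 9 and Cycs had 4, while Atp5g2, Atp5j2, Cyc1, Cox4i1, Cox5a and Ndufb7 had none. Values of the 27 are uncertain to that extent.

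Subunit c forms the proton-driven ring of complex V, and 3 genes, Atp5g1, Atp5g2 and Atp5g3, encode the same mature protein behind different import sequences. They are shown here with the 250 bases before each start, since these genes of the same protein did not vary alike across the lines. The sequences are from RefSeq (GRCm38.p6), read 5′ to 3′ on the gene's strand, which is the minus strand for each; capitals mark matches to GCGCANGCG on either strand, where N is any base, the core of the site of NRF1, a factor known for binding promoters of respiratory chain genes. The windows are chr11:96075632-96075881 for Atp5g1, chr15:102671048-102671297 for Atp5g2 and chr2:73911327-73911576 for Atp5g3.
Atp5g1: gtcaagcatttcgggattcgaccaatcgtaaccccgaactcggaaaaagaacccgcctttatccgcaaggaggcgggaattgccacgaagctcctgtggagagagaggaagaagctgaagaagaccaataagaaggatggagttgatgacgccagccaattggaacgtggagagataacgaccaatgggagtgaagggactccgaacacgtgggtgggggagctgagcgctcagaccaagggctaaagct
Atp5g2: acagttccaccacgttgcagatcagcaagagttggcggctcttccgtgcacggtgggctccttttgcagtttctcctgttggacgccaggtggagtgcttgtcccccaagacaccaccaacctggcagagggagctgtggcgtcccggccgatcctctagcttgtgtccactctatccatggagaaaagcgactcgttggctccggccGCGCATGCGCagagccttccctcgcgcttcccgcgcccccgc
Atp5g3: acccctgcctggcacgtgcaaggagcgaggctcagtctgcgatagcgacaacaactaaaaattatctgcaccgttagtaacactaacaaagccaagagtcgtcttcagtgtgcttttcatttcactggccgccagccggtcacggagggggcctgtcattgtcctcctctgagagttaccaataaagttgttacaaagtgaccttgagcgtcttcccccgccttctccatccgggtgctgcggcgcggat
Of the windows printed, the Atp5g2 one alone held these letters, on both strands at 1 place, its first base at -42 from the start. Atp5g3 held them too once the 50 bases after the start were added, as in the counts of promoters below, and none of the 3 held CCGGAAG or AAGATGGC on either strand.

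Atp5g2 read 227.5 and 217.7 RPKM in BC44, 260.9 and 216.8 in HC11, with 598.3 and 575.8 in C57MG. Both C57MG libraries were far above the other 4, and BC44 and HC11 overlapped. BC44 minus C57MG was -1.40 ± 0.10 and HC11 minus C57MG -1.30 ± 0.10 (adjusted p = 1.02e-05 and 1.75e-05, limma). Atp5g1, the lowest of the 3 in RPKM, was highest in BC44, at 29.5 and 30.2 RPKM against 22.2 and 19.5 in HC11 and 24.8 and 21.9 in C57MG. It was 0.50 ± 0.10 higher in BC44 than in HC11 (adjusted p = 0.00474, limma). Atp5g3 read 111.4 and 107.6 RPKM in BC44, 131.8 and 113.6 in HC11, with 140.3 and 132.8 in C57MG, and passed only in BC44 minus C57MG (-0.31 ± 0.09, adjusted p = 0.0146, limma). That call was lost without BC44 replicate 2 or C57MG replicate 1 (adjusted p = 0.0755 and 0.0921, limma).

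The 3 genes together gave 368.5 and 355.5 RPKM in BC44, 414.8 and 349.9 in HC11, with 763.4 and 730.5 in C57MG. Atp5g2 made up 61.2% to 62.9% of that sum in the BC44 and HC11 libraries and 78.4% and 78.8% in C57MG. Set against the catalytic subunit, the sum was 0.775 to 1.03 times the level of Atp5b in BC44 and HC11 and 2.75 and 2.68 times in C57MG. In RPKM, C57MG thus had the highest summed level of the c-ring transcripts and the lowest level of Atp5b. The sums, the shares and the ratios to Atp5b depend on the gene lengths used, which are not given, so their size is uncertain.

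**Figure D4:**
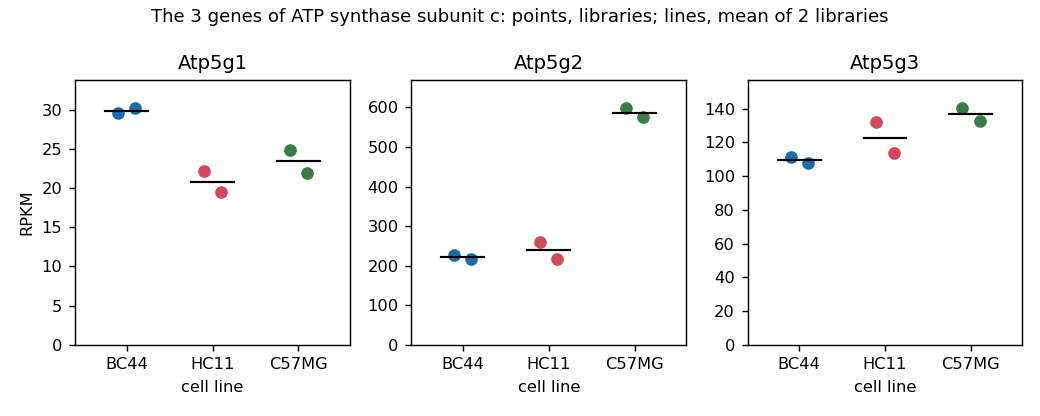
RPKM (y axes, each from 0 and each with its own scale) of the 3 genes of ATP synthase subunit c by line (x axis); points are libraries and lines are the mean of 2 libraries. Atp5g2 is 575.8 RPKM or higher in C57MG and at most 260.9 elsewhere, while Atp5g1 is highest in BC44.

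Several members with wide differences lay among other genes that differed in the same direction. For each member the 20 nearest tested genes on its chromosome that are not members were taken, and the median of their log2 fold changes was set beside that of the member. The 20 neighbours of Atp5h on chromosome 11 had a median of -1.36 in BC44 minus HC11, where Atp5h had -1.31, and 1.22 in HC11 minus C57MG, where it had 1.45. The neighbours of Atp5j2 on chromosome 5 had medians of 1.33 and 1.18 in the 2 comparisons with C57MG, where Atp5j2 had 1.33 and 1.10. Those of Atp5g2 on chromosome 15 had -1.09 and -1.05 beside its -1.40 and -1.30, and those of Ndufb9, on the same chromosome, -1.13 and -0.93 beside its -0.78 and -1.01. Ndufb7 on chromosome 8 had 1.24 in BC44 minus C57MG with 1.02 for its neighbours. Cyc1, on chromosome 15 too, had -1.06 in BC44 minus C57MG with neighbours at -1.40, but 0.10 in HC11 minus C57MG with neighbours at -0.65.

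Over all 84 members, the fold change of the member and the median of its neighbours had a Pearson r of 0.73 between BC44 and HC11 (Spearman rho 0.51). It was 0.77 (rho 0.74) between BC44 and C57MG and 0.76 (rho 0.70) between HC11 and C57MG. This is a description across genes, which are not independent replicates: all points come from the same libraries, and members close together share neighbours. The other 10675 genes, treated in the same way, had r of 0.27, 0.26 and 0.26 and rho of 0.34, 0.36 and 0.36 in the same order of comparisons. The standard deviation of the members' fold changes was 0.34, 0.51 and 0.52, and 0.23, 0.34 and 0.34 once the neighbours' median was subtracted. For the other genes it was 0.87, 1.41 and 1.35 before and 0.84, 1.36 and 1.30 after. On chromosome 15 the 5 members had a median of -0.78 in BC44 minus C57MG and the 436 other genes -0.60. On chromosome 5 the 3 members had 0.91 and the 680 other genes 0.55, and on chromosome 8 the 3 members had 0.79 and the 596 other genes 0.64. What sets whole neighbourhoods apart between the lines was not tested.

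**Figure D5:**
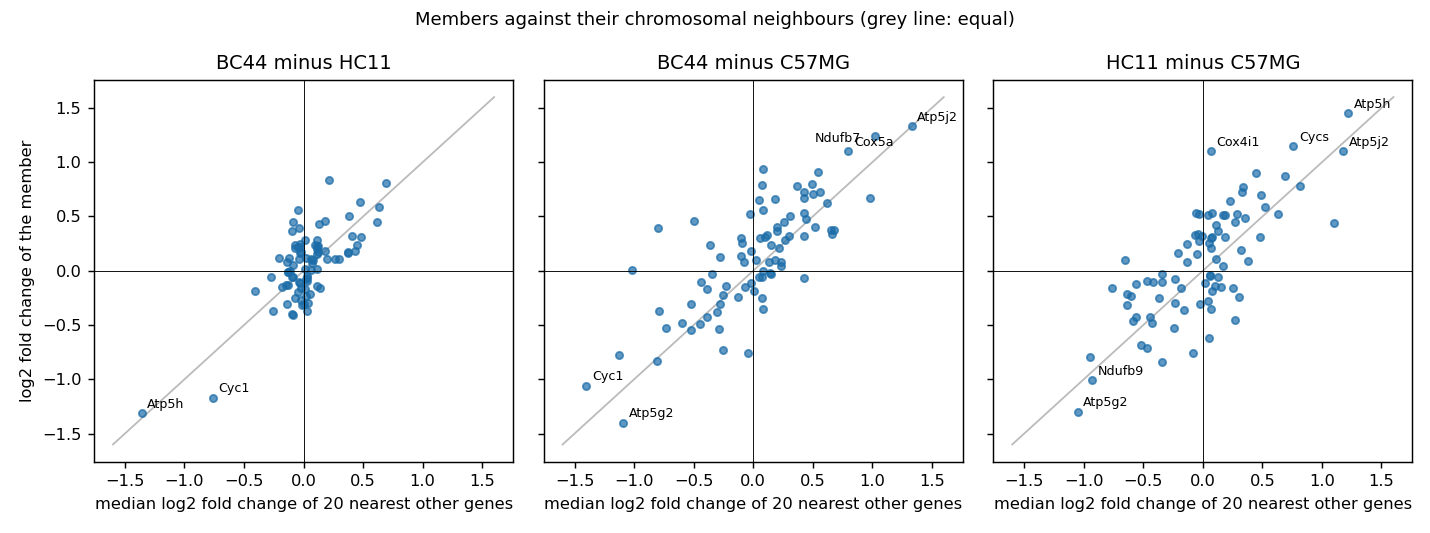
log2 fold change of each member (y axis) against the median of its 20 nearest other tested genes (x axis) in the 3 comparisons; the grey line marks equal values and members at 1 or beyond are named. Atp5h, Atp5j2 and Ndufb7 lie near the line, whereas Cox4i1 lies above it with neighbours at 0.07.

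Some members lay far from their neighbours. Cox4i1 was 1.10 higher in HC11 than in C57MG with neighbours at 0.07, and Uqcrc1 was 0.94 higher in BC44 than in C57MG with neighbours at 0.08. Sdha had -0.76 in BC44 minus C57MG with neighbours at -0.04, and Ndufb4 had 0.84 in BC44 minus HC11 with neighbours at 0.21. Complex IV members were above their neighbours' median in 11 of 11 cases in HC11 minus C57MG, by a median of 0.24. Cox6c is among these at -0.43, with neighbours at -0.56. In BC44 minus C57MG it was 8 of 11 cases, by a median of 0.16. Over all 84 members it was 51 cases in HC11 minus C57MG and 50 in BC44 minus C57MG, by medians of 0.14 and 0.10. The same counts were not made for other genes. Complex III members were above their neighbours in 9 of 9 cases in BC44 minus C57MG, by a median of 0.33, and in 7 of 9 in HC11 minus C57MG, by 0.31. For complex V it was 9 and 8 of 15 cases, by medians of 0.20 and 0.23. Complex I members were above theirs in 17 and 18 of 36 cases in the comparisons with C57MG, by medians of -0.01 and 0.01. In BC44 minus HC11 the counts were 20 of 36 for complex I, 7 of 9 for III, 3 of 11 for IV and 10 of 15 for V, with 47 of all 84 members.

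Promoter windows, 250 bases before to 50 after the start, were found for 70 of the 84 members. Letters known from respiratory chain promoters were searched on both strands. The NRF1 core GCGCATGCG was in 11 of the 70 (15.7%), in 4.44% of the 8574 tested genes with a window and in 1.75% of all windows. The wider form GCGCANGCG, which includes every match of the first, was in 32.9% of members, 16.2% of tested genes and 6.25% of windows. CCGGAAG, an ETS site bound by GABP, was in 24.3%, 21.3% and 8.86%, and AAGATGGC, a YY1 site, in 12.9%, 5.70% and 2.75%. TCAAGGTCA, a site of estrogen-related receptors, was in 2 members (2.86%), 0.303% of tested genes and 0.423% of windows. A match is a string of letters and was not tested as a site.

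Matches to GCGCATGCG that begin before the start are printed for the members that hold them besides Atp5g2, since these members differ in direction between the lines. Capitals mark the match, which is longer where both strands match, and for Atp5g3 they mark the match to TCAAGGTCA, read as its reverse complement. The places in GRCm38.p6 are chr6:50566612-50566640 (minus strand) for Cycs, chr2:36049329-36049357 (minus strand) for Ndufa8, chr17:56717692-56717721 (plus strand) for Ndufa11, chr4:24897960-24897989 (plus strand) for Ndufaf4, chr10:80406808-80406836 (minus strand) for Uqcr11, chr5:115349101-115349130 (minus strand) for Cox6a1, chr5:108434430-108434459 (minus strand) for Atp5k, chr9:44920965-44920992 (minus strand) for Atp5l and chr2:73911360-73911388 (minus strand) for Atp5g3.
Cycs: catgctagctCGCATGCGCgcgcacaaac
Ndufa8: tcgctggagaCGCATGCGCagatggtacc
Ndufa11: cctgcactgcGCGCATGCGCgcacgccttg
Ndufaf4: ccagatgtctGCGCATGCGCctgtgcggaa
Uqcr11: atcgccttcaCGCATGCGCtatacgtctg
Cox6a1: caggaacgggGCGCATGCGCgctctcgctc
Atp5k: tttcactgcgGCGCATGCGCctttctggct
Atp5l: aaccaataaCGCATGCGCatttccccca
Atp5g3: tgttacaaagTGACCTTGAgcgtcttccc
In BC44 minus C57MG, Atp5k had 0.91, Cycs 0.78, Cox6a1 0.67, Atp5l 0.67 and Uqcr11 0.48, whereas Atp5g2 had -1.40 and Ndufa8 -0.73, all past the threshold. Ndufa11 and Ndufaf4 did not pass, at 0.18 and 0.24. Uqcrc1 and Ndufaf5, whose matches to the core begin after the start, had 0.94 (past the threshold) and 0.10 (not passing). Members that hold the core thus had both directions, as did all genes, of which 37.5% were higher and 34.1% lower in BC44 than in C57MG. Members with GCGCANGCG had a median of 0.04 in HC11 minus C57MG and those without it 0.11, and in BC44 minus C57MG the medians were 0.21 and 0.26. For CCGGAAG, in 17 members, the medians with and without it were 0.27 and 0.04 in HC11 minus C57MG and 0.32 and 0.08 in BC44 minus C57MG. For AAGATGGC, in 9 members, they were 0.31 and 0.09, and 0.24 and 0.24. In BC44 minus HC11 every one of these medians was 0.11, except 0.16 with CCGGAAG. These medians were not tested.

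Other mitochondrial genes were read from 4 lists, whose counts stand beside the shares of all genes given above: 37.4% higher and 33.2% lower in HC11 than in C57MG, and 37.5% and 34.1% in BC44 than in C57MG. Of 17 tested regulators of mitochondrial biogenesis, 8 were higher in HC11 than in C57MG, 3 lower and 6 did not pass (median 0.24), and 7 were higher in BC44 than in C57MG and 1 lower (median 0.19). Ppargc1a, a coactivator of respiratory genes, read 2.49 and 2.25 RPKM in HC11, 0.268 and 0.129 in BC44, and 0.050 and 0.029 in C57MG. Its HC11 minus C57MG difference was 1.70. It is among the 8, but it passed the filter only through the HC11 libraries, where it is high, so its call is no support. Esrra, an estrogen-related receptor that works with Ppargc1a, read 25.2 and 20.04 RPKM in HC11, 16.7 and 14.1 in BC44, and 5.86 and 7.79 in C57MG. It was 1.6 ± 0.16 higher in HC11 than in C57MG (adjusted p = 7.88e-05, limma). Pprc1, a related coactivator, was 1.16 ± 0.10 higher in BC44 than in C57MG (adjusted p = 3.54e-05, limma), and Myc, a growth-related transcription factor, 1.10 ± 0.16 (adjusted p = 0.000478, limma). Tfam, which packages mitochondrial DNA and starts its transcription and which was chosen here after its values were seen, was the 1 regulator higher in C57MG than in BC44, at 15.3 and 16.3 RPKM against 9.99 and 10.4.

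In the list of 41 tested assembly factors outside the name rule, 17 were higher in BC44 than in C57MG, 8 lower and 16 did not pass (median 0.12), and 16, 6 and 19 in HC11 (median 0.18). In all, 61.0% and 53.7% of them were called, against 71.7% and 70.5% of all genes. Timmdc1, a complex I assembly factor, was higher in BC44 by 1.22 ± 0.10 (adjusted p = 2.02e-05, limma). Cox20 and Cox14, complex IV assembly factors, were higher in C57MG: HC11 minus C57MG was -1.37 ± 0.15 and -1.10 ± 0.13 (adjusted p = 0.000133 and 0.000162, limma). Some other complex IV assembly factors of the list, named here after their values were seen, passed in the other direction. Cox10, Cox15, Cox17, Cox18, Cox19, Sco1, Coa5 and Pet100 were 0.24 to 0.91 higher in HC11 than in C57MG. Cox11, Surf1, Sco2, Coa3, Coa6 and Coa7 did not pass in that comparison, and Cox16 was not tested. The 19 genes of the citrate cycle and pyruvate entry had 5 higher and 7 lower in BC44 than in C57MG (median -0.06) and 8 higher and 4 lower in HC11 (median 0.15), so that 63.2% were called in each. Among them, Idh3a and Mdh2, dehydrogenases of the cycle, were 1.49 ± 0.09 and 1.05 ± 0.07 higher in BC44 than in C57MG (adjusted p = 3.77e-06 and 9.57e-06, limma). Of 26 genes for membrane channels, carriers and import, 17 were higher and 3 lower in HC11 than in C57MG (median 0.49), and 12 higher and 4 lower in BC44 (median 0.20), or 76.9% and 61.5% called. Vdac3, an outer membrane channel, read 262.7 and 285.0 RPKM in HC11 and 92.1 to 94.3 in the other 4 libraries. Tomm20, an import receptor, read 57.4 to 59.3 RPKM in BC44 and HC11 and 26.2 and 24.7 in C57MG. Slc25a5, a carrier that exchanges ADP and ATP, was 0.95 ± 0.10 higher in BC44 than in C57MG (adjusted p = 7.69e-05, limma).

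Between BC44 and HC11 the lists had calls in both directions, where 24.7% of all genes were higher in BC44 and 23.0% in HC11. The assembly factors had 8 higher in BC44 and 10 in HC11, the citrate cycle genes 2 and 7, the regulators 4 and 2, and the channels, carriers and import genes 2 and 7, with medians of 0.00, -0.13, 0.06 and -0.12. Ttc19, an assembly factor of complex III, was among those higher in HC11 (BC44 minus HC11 -0.75 ± 0.11, adjusted p = 0.00101, limma), as were Dlst and Idh3b of the citrate cycle (-0.57 ± 0.07 and -0.54 ± 0.08, adjusted p = 0.000546 and 0.000926, limma) and Timm44 of the import motor (-0.92 ± 0.09, adjusted p = 0.000195, limma). Ecsit, an assembly factor of complex I, and Tfb1m, which methylates mitochondrial ribosomal RNA, were higher in BC44, by 0.73 ± 0.08 and 0.56 ± 0.12 (adjusted p = 0.000385 and 0.00633, limma).

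The libraries of a line also differed in the members as a set. In HC11, 73 of 84 members were higher in replicate 1 than in replicate 2, with a median log2 difference of 0.128, where 52.0% of all genes were. In BC44 it was 59 of 84, by a median of 0.074, where 45.6% of all genes were, and in C57MG 44 of 84, by 0.002. A shift of that size is close to the median differences between BC44 and HC11 given above, and the HC11 libraries lay on either side of both BC44 libraries in the sum of complex V and in the sum of all members.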

How the data were processed

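Poly(A) RNA of 3 lines, 2 directional libraries each, was read from the authors' deposited table of RPKM per gene. Reads were aligned to mm9 with STAR, per the submitters' processing notes; the counting program, its use of strand, the gene models and the gene lengths are not given in the sources used here. The 84 members and all lists were chosen with earlier results of these data known. Genes with at least 1 RPKM in at least 2 libraries (10759 of 11417) were compared as log2(RPKM + 1) with limma 3.58.1 (R 4.3.3; lmFit and eBayes with a mean-variance trend), all 6 libraries in 1 fit, with Benjamini-Hochberg adjustment over all tested genes and a threshold of 0.05. The pseudocount of 1 understates changes of low genes. The script was tested on simulated data. In BC44 against HC11 it called 41 of 100 genes changed by 0.5 (log2) and 83 of 100 changed by 1. There 10559 of the 10759 genes were left unchanged, unlike here, so those rates do not carry over to these data. Replicate numbers were not treated as pairs. Genes named with a value in each library were the 5 largest non-overlapping changes per comparison and direction, isoform families, catalytic or core subunits, and the highest and lowest member of each complex; of each list, the 2 largest changes per comparison. The values of 1 member, which stays in all counts and sums, are not reported here. Depth was estimated from whole-read steps of low values, of which 75.0% to 83.9% lay within 0.15 of a whole number (30.0% by chance). Chromosome order, exon lengths and close copies (blastn 2.17.0) came from the GENCODE M21 annotation of GRCm38, and promoter windows from RefSeq (GRCm38.p6). Alternatives were the pseudocount, filter, scaling, variance model, libraries fitted, a replicate block and leaving out libraries.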

Additional observations from a re-analysis of the deposited data

How the results depend on the processing

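With 2 libraries a line, and a spread shared with the other lines when 1 is left out, counts of calls are imprecise. Leaving out 1 library at a time gave 17 to 30 called members in BC44 against HC11 (10 to 22 higher in BC44, 6 to 14 in HC11), 45 to 56 in BC44 against C57MG (31 to 37 and 13 to 19) and 41 to 54 in HC11 against C57MG (27 to 35 and 14 to 25). Leaving out BC44 replicate 2 and C57MG replicate 1 together, chosen after seeing the data, gave 5 (3 and 2), 24 (17 and 7) and 29 (19 and 10). All called members kept their sign in these fits. Complex medians below are relative to all genes. In BC44 against HC11, leaving out 1 library gave -0.04 to 0.08 for complex I, -0.09 to 0.14 for II, 0.09 to 0.28 for III, -0.46 to -0.32 for cytochrome c, -0.14 to -0.02 for IV, 0 to 0.19 for V and -0.06 to 0.14 for assembly factors. In BC44 against C57MG it gave -0.11 to 0.02 for I, 0.03 to 0.05 for II, 0.28 to 0.37 for III, 0.71 to 0.77 for cytochrome c, 0.43 to 0.53 for IV, 0.26 to 0.30 for V and -0.26 to -0.09 for assembly factors. In HC11 against C57MG it gave -0.17 to -0.06 for I, -0.17 to -0.04 for II, 0.09 to 0.22 for III, 1.04 to 1.18 for cytochrome c, 0.42 to 0.53 for IV, 0.15 to 0.28 for V and -0.38 to -0.31 for assembly factors. With those 2 libraries left out together, III was 0.28 and assembly factors 0.00 in BC44 against HC11; in BC44 against C57MG, II was 0.03, III 0.29, cytochrome c 0.78, V 0.38 and assembly factors -0.16. Quantile normalization turned IV to 0.05 in BC44 against HC11, and gave II 0.03, III 0.28 and IV 0.36 in BC44 against C57MG and IV 0.36 and V 0.16 in HC11 against C57MG. A mean of at least 5 RPKM gave II 0.02 and assembly factors -0.13 in BC44 against C57MG. The causes of these shifts were not tested. Single genes that turned sign did not pass the threshold before or after. In BC44 against HC11, leaving out libraries gave -0.23 to 0.04 for Atp5g2, -0.06 to 0.10 for Cox6b1, -0.21 to 0.11 for Ndufa7, -0.09 to 0.08 for Ndufs3 and -0.22 to 0.11 for Sdhc, and quantile normalization gave Cox6a1 0.08. In BC44 against C57MG it gave -0.18 to 0.14 for Ndufaf2, -0.13 to 0.06 for Ndufb2, -0.02 to 0.20 for Ndufb4 and -0.02 to 0.04 for Ndufs8, which was also -0.02 under median-ratio scaling and quantile normalization. In HC11 against C57MG, Cyc1 ran from -0.02 to 0.22 and was -0.02 under quantile normalization. Same-numbered replicates had deviations correlated at 0.354, -0.0387 and 0.0379 in the 3 comparisons, which does not pair them; a replicate block gave 31 members in BC44 against HC11 (18 and 13), 57 in BC44 against C57MG (38 and 19) and 56 in HC11 against C57MG (34 and 22).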
